A study of Mus musculus with 18 samples.

Results

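The 10 genes described here are the TGF-beta ligands Tgfb1, Tgfb2 and Tgfb3, the signalling receptors Tgfbr1 and Tgfbr2, the latent TGF-beta binding proteins Ltbp1, Ltbp2 and Ltbp3, the inhibitory SMAD gene Smad7 and the matricellular gene Ccn2. They were chosen by name for their role in the pathway, with earlier results of these data known. They were taken from the 55450 genes of the count table. All 10 were among the 16270 genes that passed the filter on low counts. RNA was sequenced from frozen left ventricle of 18 male FVB/N mice, with 4 wild type mice on control diet (WT CD), 5 wild type mice on ertugliflozin (WT ERTU), 5 mice with cardiac-specific overexpression of Gαq on control diet (Gαq CD) and 4 Gαq mice on ertugliflozin (Gαq ERTU). Ertugliflozin, an inhibitor of the glucose transporter SGLT2, was given at 0.5 mg/g of chow for 16 weeks from the age of 4 weeks, so that all mice were 20 weeks old at tissue collection. WT mice were littermates of the Gαq mice, and the overexpression was limited to the heart.

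TGF-beta ligands are secreted as latent complexes, in which the mature dimer stays bound to its propeptide and, through it, to a latent TGF-beta binding protein that anchors the complex in the extracellular matrix. Once released, the ligand binds the type II receptor, which recruits and phosphorylates the type I receptor, and the type I receptor phosphorylates SMAD2 and SMAD3. In the heart the pathway is best known for activating fibroblasts and for raising the production of collagen and other matrix proteins.

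Library totals ran from 15383566 to 20908363 read pairs. Levels are given as CPM, read pairs scaled to a common library size. Gnaq, which encodes Gαq, stood at 1641 CPM or more in each Gαq library and at 229.7 CPM or less in each WT library. Its level was 7473 ± 3818 CPM (SD, n = 5) in Gαq CD. In Gαq ERTU it was 3216 ± 1371 CPM (SD, n = 4), a log2 fold change of -1.22 for ERTU in Gαq that did not pass (edgeR adjusted p = 0.653). Libraries are named by group and by the number in the count table, which runs across the series. The summed level of 4 genes that mark atrial muscle (Myl7, Myl4, Sln and Bmp10) was highest in library 5 of WT CD (223 CPM), library 14 of WT ERTU (247 CPM), library 8 of Gαq CD (703 CPM) and library 20 of Gαq ERTU (482 CPM), against 2.26 to 157 CPM in the other 14 libraries. The same 4 libraries also had the highest fibroblast, macrophage, mesothelial and fat marker sums of their group. Results are therefore given with and without those 4 libraries where they differ. Nothing in the labels ties the samples to a batch, and p-values measure the spread between these hearts.

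The promoters of Tgfb1, Tgfb2 and Tgfbr1 are shown because these genes separate a ligand that did not pass the test from a ligand and a receptor that did. The RefSeq promoter table of build GRCm38.p6 had an entry for 7 of the 10 genes. Each line gives the 250 bases before a start site, 5′ to 3′ on the strand of the gene, at chr7:25686752-25687001 (plus strand) for Tgfb1, chr1:186705990-186706239 (minus strand) for Tgfb2 and chr4:47352972-47353221 (plus strand) for the first start of Tgfbr1. Capitals mark the letters TATAAA, which position the start of transcription in many promoters, and CAGACA, which hold a box bound by SMAD3 and SMAD4. Each was searched on both strands.
Tgfb1: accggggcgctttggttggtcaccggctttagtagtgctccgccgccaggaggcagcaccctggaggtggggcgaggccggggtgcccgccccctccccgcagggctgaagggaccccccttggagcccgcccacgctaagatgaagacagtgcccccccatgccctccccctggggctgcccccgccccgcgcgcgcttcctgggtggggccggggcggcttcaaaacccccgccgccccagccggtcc
Tgfb2: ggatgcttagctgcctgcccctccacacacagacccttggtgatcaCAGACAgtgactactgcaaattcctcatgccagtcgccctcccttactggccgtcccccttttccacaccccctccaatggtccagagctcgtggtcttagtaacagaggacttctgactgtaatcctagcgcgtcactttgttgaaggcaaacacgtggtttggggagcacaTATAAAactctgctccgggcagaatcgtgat
Tgfbr1: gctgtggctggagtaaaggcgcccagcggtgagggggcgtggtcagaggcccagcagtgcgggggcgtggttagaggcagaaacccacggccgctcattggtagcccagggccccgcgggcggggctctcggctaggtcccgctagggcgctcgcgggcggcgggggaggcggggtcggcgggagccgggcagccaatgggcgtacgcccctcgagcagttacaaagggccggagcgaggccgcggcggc
The Tgfb2 window held CAGACA at positions -204 to -199 and TATAAA at positions -31 to -26 from the start, and the 2 other windows printed held neither. The second start listed for Tgfbr1, whose window is not printed, held CAGACA at positions -203 to -198 from that start. The second start listed for Ltbp1, a gene not called by genotype, held CAGACA on the opposite strand at -149 to -144 and at -98 to -93. The other windows of the 7 genes held neither. Of 32851 mouse promoter windows of this length, 12.4% held TATAAA and 17.1% held CAGACA on either strand. GC content was 75.2% for Tgfb1, 53.6% for Tgfb2 and 74.8% for Tgfbr1.

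The comparison of genotypes asked how Gαq overexpression changed the pathway. With diet in the model, 3 of the 10 genes were higher in Gαq and 0 were lower at an adjusted p under 0.05 (edgeR quasi-likelihood test, adjusted over all genes tested), beside 19.6% of all genes called in either direction, 9.72% higher and 9.92% lower. These were Tgfb3, Tgfb2 and Tgfbr1. The median log2 fold change was 0.32 over the 10 genes and 0.0038 over all genes tested, and all 10 estimates were above 0. In left ventricle as a whole, more cells of a type and more RNA per cell cannot be told apart.

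**Figure D1:**
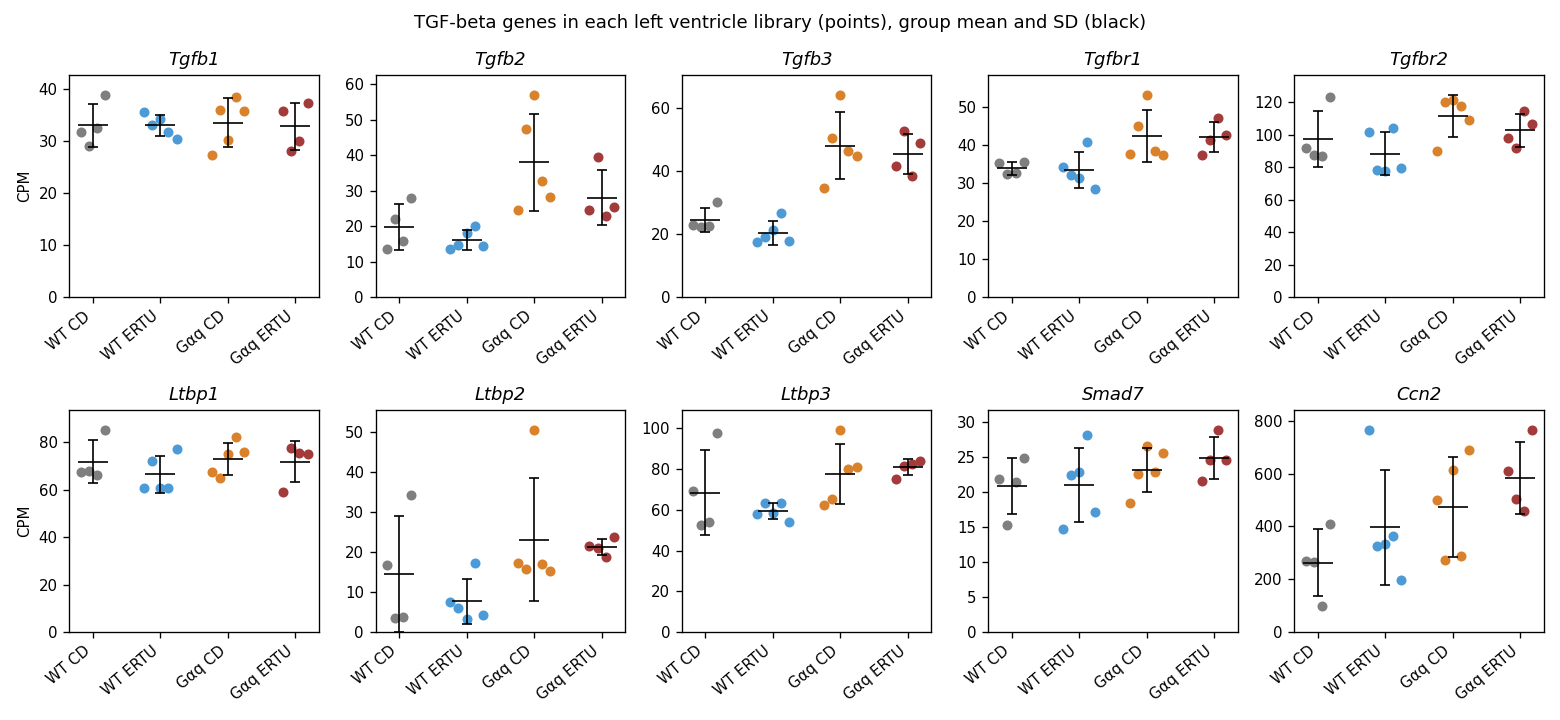
CPM (y axis, from 0) of the 10 genes in each library (points) by group (x axis), with the group mean and SD in black. For Tgfb3 the 9 Gαq libraries sit between 34.5 and 64.1 CPM, all above the 9 WT libraries at 17.4 to 30.0 CPM, while the 4 groups of Tgfb1 overlap.

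Tgfb3, the ligand with the largest difference, separated the genotypes completely. Its level was 22.8, 22.2, 22.5 and 30.0 CPM in WT CD libraries 1, 2, 4 and 5, and 34.5, 50.3, 64.1, 46.4 and 44.7 CPM in Gαq CD libraries 6 to 10. On ERTU it was 17.4, 18.9, 21.4, 26.6 and 17.7 CPM in WT libraries 11 to 15 and 41.7, 52.5, 38.4 and 48.9 CPM in Gαq libraries 16, 17, 18 and 20. Every Gαq library was above every WT library, a pattern that 1.73% of all genes showed in this direction. The log2 fold change was 1.07 (SE 0.11), or 2.09-fold (95% interval 1.78 to 2.46), with an adjusted p of 8.46e-07 (edgeR). The gene was called on CD (log2 fold change 0.98, SE 0.16, edgeR adjusted p = 0.00061), where 8.1% of all genes were called and 4% were higher, and on ERTU (1.15, SE 0.16, edgeR adjusted p = 0.000113), where 8.17% were called and 3.93% were higher. It kept these 3 calls under each of the 25 alternatives, including each fit that left out 1 library. Tgfb3 (ENSMUSG00000021253) lies on chromosome 12 at 86056745 to 86079041 on the minus strand of GRCm38.

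Tgfb2 was also higher in Gαq, with a wider spread between hearts. It stood at 13.4, 21.9, 15.9 and 27.9 CPM in WT CD libraries 1, 2, 4 and 5, and at 24.6, 47.4, 57.0, 32.8 and 28.3 CPM in Gαq CD libraries 6 to 10. It stood at 13.5, 14.7, 18.2, 19.9 and 14.3 CPM in WT ERTU and at 24.4, 39.5, 22.8 and 25.3 CPM in Gαq ERTU. On CD library 5 of WT lay above library 6 of Gαq, and on ERTU the groups did not overlap, as for 5.4% of all genes in this direction. By genotype the log2 fold change was 0.87 (SE 0.17), or 1.83-fold (95% interval 1.43 to 2.34), with an edgeR adjusted p of 8.47e-04, and this call held under each of the 25 alternatives. Within a diet the calls were less secure. On CD the log2 fold change was 0.95 (SE 0.25, edgeR adjusted p = 0.0208), and the call was lost without library 1 (0.80), 4 (0.86), 7 (0.85) or 8 (0.75) and when only the 2 groups entered the fit (0.95, adjusted p = 0.0525). On ERTU it was 0.80 (SE 0.24, edgeR adjusted p = 0.049), and the call held in 13 of 25 alternatives, with an adjusted p of 0.171 and a log2 fold change of 0.58 without library 17. Each of the 18 libraries was left out in turn, and this call was lost without library 2, 4, 7, 9, 11, 12, 13, 15, 16, 17, 18 or 20. Tgfb2 (ENSMUSG00000039239) lies on chromosome 1 at 186622792 to 186705989 on the minus strand.

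Tgfb1, the most studied ligand, did not pass the test. Its level was 31.8, 29.1, 32.5 and 38.9 CPM in WT CD, 27.2, 36.0, 30.2, 38.5 and 35.9 CPM in Gαq CD, 35.7, 33.1, 34.2, 31.7 and 30.5 CPM in WT ERTU and 35.8, 28.0, 30.1 and 37.4 CPM in Gαq ERTU. All 4 groups overlapped. The log2 fold change by genotype was 0.01 (SE 0.08, edgeR adjusted p = 0.964), with a 95% interval of 0.897-fold to 1.13-fold.

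**Figure D2:**
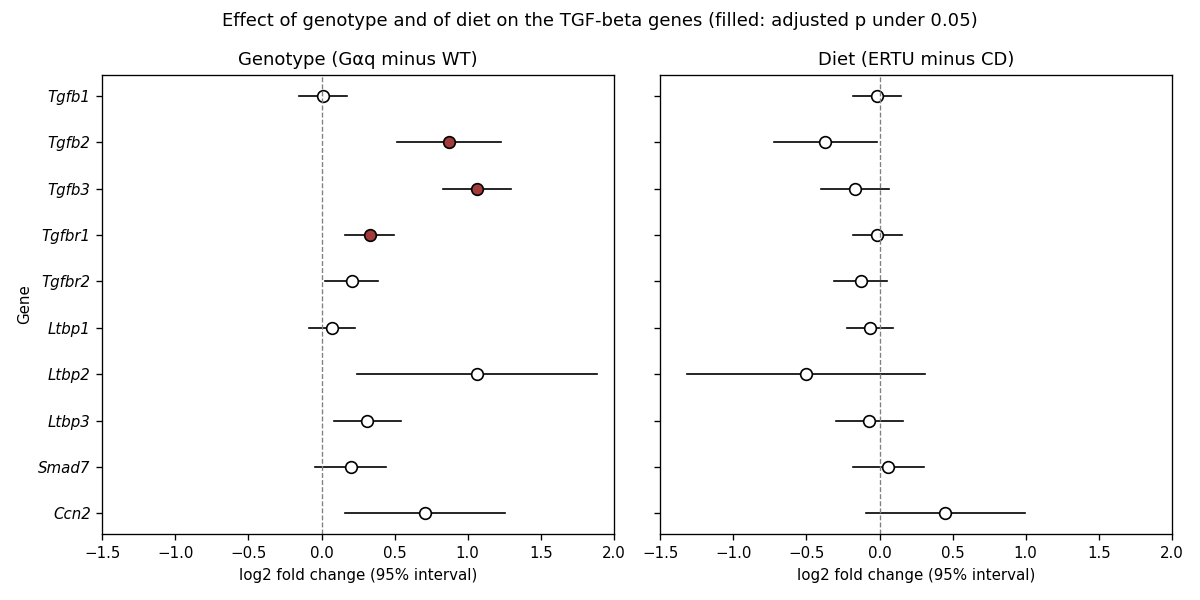
Log2 fold change (x axis) with its 95% interval (bars) of each gene (y axis) by genotype on the left and by diet on the right, where filled points have an adjusted p under 0.05. Tgfb2, Tgfb3 and Tgfbr1 are filled for genotype, at 0.87, 1.07 and 0.33, and no gene is filled for diet.

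The make-up of the ligand transcripts differed between genotypes. Per kb of exon, Tgfb3 made up 42.0 ± 1.36% (SD, n = 4) of the summed level of the 3 ligands in WT CD and 51.7 ± 1.95% (SD, n = 5) in Gαq CD, and 39.0 ± 3.45% (SD, n = 5) in WT ERTU and 54.1 ± 1.604% (SD, n = 4) in Gαq ERTU. The share of Tgfb1 was 38.4 ± 2.85% (SD, n = 4) in WT CD and 24.9 ± 4.70% (SD, n = 5) in Gαq CD, and 43.0 ± 4.74% (SD, n = 5) in WT ERTU and 26.6 ± 4.54% (SD, n = 4) in Gαq ERTU. Tgfb2 had a mean share between 18.02% and 23.4% in the 4 groups. The summed level of the ligands was 17.2 ± 2.82 CPM per kb in WT CD (SD, n = 4) and 27.4 ± 5.56 CPM per kb in Gαq CD (SD, n = 5).

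Ratios within a library do not depend on how libraries are scaled. The mean log2 ratio of Tgfb3 to Tgfb1 was 0.13 in WT CD and 1.08 in Gαq CD, a difference of 0.94, and -0.14 in WT ERTU and 1.04 in Gαq ERTU, a difference of 1.18. The mean log2 ratio of Tgfb2 to Tgfb1 was -0.99 in WT CD and -0.08 in Gαq CD, a difference of 0.91, and -1.25 in WT ERTU and -0.45 in Gαq ERTU, a difference of 0.79. In each of these 4 comparisons the groups did not overlap and the 2-sided exact permutation p was 0.0159, the smallest that 4 against 5 libraries allow, or 0.0476 adjusted over the 12 ratios compared. None of the 4 calls held when medians replaced means (adjusted exact permutation p = 0.143 in each). Splits that tie on medians raise the smallest p, so this check cannot show whether the calls depend on the use of means. The calls were also lost when any 1 library was left out. There the adjusted exact permutation p ran from 0.0686 to 0.107, because fewer splits limit the smallest p. The ratio of Tgfbr1 to Tgfbr2 differed by 0.10 on CD and 0.12 on ERTU between genotypes, which did not pass (adjusted exact permutation p = 0.45 and 0.413).

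**Figure D3:**
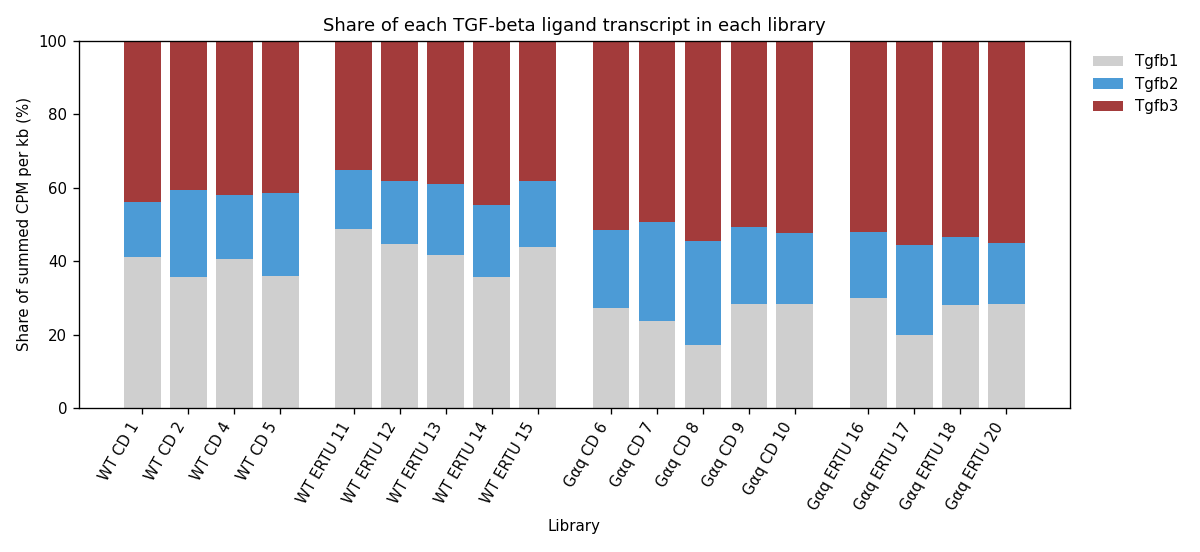
Share of each ligand (y axis, percent of the summed CPM per kb of exon of Tgfb1, Tgfb2 and Tgfb3) in each library (x axis), by group. Tgfb3 holds 49.2% to 55.6% in the 9 Gαq libraries and 35.3% to 44.7% in the 9 WT libraries.

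Of the receptors, the type I receptor gene Tgfbr1 was higher in Gαq. It stood at 35.1, 32.2, 32.5 and 35.6 CPM in WT CD and 37.6, 45.0, 53.1, 38.4 and 37.3 CPM in Gαq CD, without overlap, as for 4.7% of all genes in this direction. It stood at 34.1, 31.9, 31.3, 40.9 and 28.4 CPM in WT ERTU and 37.3, 41.2, 46.9 and 42.7 CPM in Gαq ERTU, where library 14 of WT lay inside the Gαq range. The log2 fold change was 0.33 (SE 0.08), or 1.26-fold (95% interval 1.12 to 1.41), with an edgeR adjusted p of 0.00551, and this call held under each of the 25 alternatives. Within a diet the difference did not pass (edgeR adjusted p = 0.103 on CD and 0.0826 on ERTU), and without libraries 5, 8, 14 and 20 it passed on ERTU (log2 fold change 0.41, adjusted p = 0.0223).

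The type II receptor gene Tgfbr2 ran from 86.7 to 123 CPM in WT CD, 89.9 to 121 CPM in Gαq CD, 77.5 to 104 CPM in WT ERTU and 91.6 to 114 CPM in Gαq ERTU. The groups overlapped on both diets, and the log2 fold change by genotype was 0.21 (SE 0.09, edgeR adjusted p = 0.103). It was called without library 5 (0.27, adjusted p = 0.0235) and without libraries 5, 8, 14 and 20 (0.28, adjusted p = 0.0279). Per kb of exon, the level of Tgfbr2 was the higher of the 2 receptors, at 11.9 ± 2.12 CPM per kb against 5.18 ± 0.27 CPM per kb for Tgfbr1 in WT CD (SD, n = 4).

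Among the latency proteins, 0 of 3 passed by genotype, and Ltbp2 and Ltbp3 depended on single libraries. Ltbp2, a matrix protein related to the fibrillins, stood at 16.8, 3.53, 3.70 and 34.2 CPM in WT CD libraries 1, 2, 4 and 5 and at 17.2, 15.6, 50.6, 16.99 and 15.2 CPM in Gαq CD libraries 6 to 10. It stood at 7.38, 5.96, 3.29, 17.2 and 4.25 CPM in WT ERTU and 21.4, 21.1, 18.8 and 23.7 CPM in Gαq ERTU. On CD the genotypes overlapped through libraries 1 and 5. On ERTU they did not overlap, as for 5.4% of all genes in this direction. The difference on ERTU did not pass (log2 fold change 1.47, SE 0.56, edgeR adjusted p = 0.12). It passed without library 14 (2.03, edgeR adjusted p = 0.0287) and without libraries 5, 8, 14 and 20 (1.97, edgeR adjusted p = 0.00665). By genotype the log2 fold change was 1.07 (SE 0.39, edgeR adjusted p = 0.0625). It was 1.498 without library 5 (adjusted p = 0.00489), 1.27 without library 14 (adjusted p = 0.0286) and 1.49 without libraries 5, 8, 14 and 20 (adjusted p = 0.00219). Libraries 5, 8, 14 and 20 had the highest Ltbp2 level of their group and also its highest atrial marker sum. They were also highest of their group in the fibroblast, macrophage, mesothelial and fat marker sums. The part of any of these tissues in the Ltbp2 level was not tested.

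**Figure D4:**
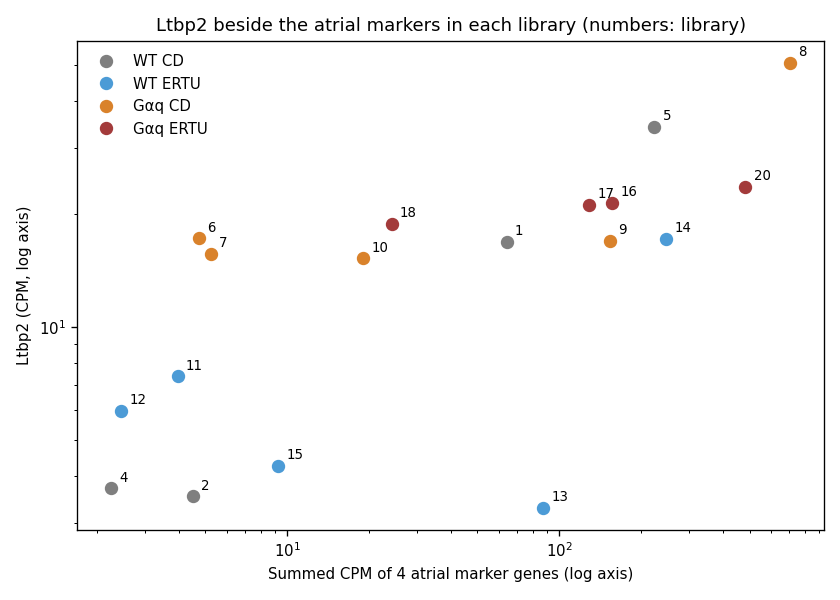
Ltbp2 level (y axis, CPM, log scale) against the summed CPM of 4 atrial marker genes (x axis, log scale) in each library, coloured by group and numbered as in the count table. Libraries 5, 8, 14 and 20 lie highest of their group on both axes, and the 4 Gαq ERTU libraries lie between 18.8 and 23.7 CPM over marker sums of 24.2 to 482 CPM. Those libraries were also highest of their group in fibroblast, macrophage, mesothelial and fat marker sums, which are not plotted.

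Ltbp3, which binds latent TGF-beta, stood at 69.4, 52.6, 54.0 and 97.7 CPM in WT CD and 62.2, 65.1, 99.3, 79.9 and 80.9 CPM in Gαq CD. On ERTU it ran from 53.9 to 63.4 CPM in WT and from 75.2 to 84.2 CPM in Gαq. The groups did not overlap, as for 5.4% of all genes in this direction, and the difference did not pass (log2 fold change 0.45, SE 0.15, edgeR adjusted p = 0.0835). This difference on ERTU was called in 4 of 25 alternatives, among them without libraries 5, 8, 14 and 20 (0.45, edgeR adjusted p = 0.0297). By genotype the log2 fold change was 0.31 (SE 0.11, edgeR adjusted p = 0.0505), just outside the threshold, and 9 of 25 alternatives called it. It was 0.42 (adjusted p = 0.00137) without library 5 and 0.37 (adjusted p = 0.00508) without libraries 5, 8, 14 and 20. Ltbp1, which anchors latent TGF-beta in the matrix, ran from 58.9 to 85.3 CPM over all libraries, with a log2 fold change by genotype of 0.07 (SE 0.08, edgeR adjusted p = 0.569).

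Smad7, the feedback inhibitor that SMAD signalling induces, ran from 15.2 to 24.8 CPM in WT CD, 18.4 to 26.5 CPM in Gαq CD, 14.6 to 28.1 CPM in WT ERTU and 21.5 to 28.9 CPM in Gαq ERTU. The groups overlapped on both diets, and the log2 fold change by genotype was 0.20 (SE 0.12, edgeR adjusted p = 0.253). It was called in 0 of 25 alternatives.

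Ccn2, which encodes connective tissue growth factor, varied widely between hearts of a group. It stood at 269, 265, 99.98 and 411 CPM in WT CD, 500.2, 274, 615, 286 and 688 CPM in Gαq CD, 766, 325, 333, 362 and 195 CPM in WT ERTU and 610.0, 503, 457 and 764 CPM in Gαq ERTU. The WT ERTU range covered the whole Gαq ERTU range. By genotype the log2 fold change was 0.71 (SE 0.26), or 1.63-fold (95% interval 1.12 to 2.38), with an edgeR adjusted p of 0.0634. It was called in 6 of 25 alternatives, among them without library 11 (0.90, adjusted p = 0.0099) and without library 5 (0.83, adjusted p = 0.0375). Without libraries 5, 8, 14 and 20 it did not pass (0.71, edgeR adjusted p = 0.136), the largest adjusted p of the 25. Ccn2 shares 665 bp of exon with Gm15270 on the opposite strand, which had 25 to 72 counts a library.

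The comparison of diets asked whether ertugliflozin changed the pathway. In the model with both factors, 0 of the 10 genes were called by diet, as were 0% of all genes (edgeR adjusted p under 0.05). At an unadjusted p under 0.05 the one gene among the 10 was Tgfb2, with a log2 fold change of -0.37 (SE 0.17, unadjusted p = 0.0403, edgeR adjusted p = 0.640). Its 95% interval ran from 0.606-fold to 0.987-fold. The other 9 had log2 fold changes from -0.50 (Ltbp2, SE 0.39) to 0.45 (Ccn2, SE 0.26).

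Within a genotype, 0 of the 10 genes were called for ERTU in WT, beside 0% of all genes, and 0 were called for ERTU in Gαq, beside 0.00615% of all genes (edgeR). In Gαq hearts the log2 fold change of Tgfb2 on ERTU was -0.44 (SE 0.24, edgeR adjusted p = 0.656), with a 95% interval from 0.518-fold to 1.04-fold. Mean Gnaq was also lower in Gαq ERTU than in Gαq CD, as given above, and its part in this value was not tested. That of Tgfb3 was -0.08 (SE 0.16, edgeR adjusted p = 0.896), with a 95% interval from 0.752-fold to 1.19-fold. The interaction, the difference in the ERTU effect between Gαq and WT, was called for 0 of the 10 genes and 0% of all genes (edgeR). Its log2 estimates ran from -0.30 for Ccn2 (SE 0.53) to 0.80 for Ltbp2 (SE 0.78).

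Other genes of the pathway were counted by role, in lists chosen with earlier results of these data known. By genotype, 9.72% of all genes tested were higher in Gαq and 9.92% were lower, with a median log2 fold change of 0.0038, and each count is read against these shares. Of 16 genes that activate TGF-beta or act as co-receptors, 2 were higher in Gαq and 1 was lower (edgeR, by genotype), a share close to the 19.6% of all genes called in either direction. Itgb5, an integrin subunit that with Itgav can free latent TGF-beta, had a log2 fold change of 0.92 (SE 0.14, adjusted p = 5.87e-05). Lrrc32, which holds latent TGF-beta on the cell surface, had 0.47 (SE 0.11, adjusted p = 0.00283), and Furin, a protease that cleaves the ligand precursors, had -0.44 (SE 0.13, adjusted p = 0.0179). The median of the list was 0.19. Furin lost its call in 2 of 25 alternatives, without library 1 and without libraries 5, 8, 14 and 20, with an adjusted p of up to 0.0581, and from 2 to 6 genes of the list were called over these alternatives. Of 8 SMADs and other transducers, 0 passed in either direction, with a median of -0.01.

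Of 12 inhibitors, 5 were higher and 1 was lower in Gαq, beside 9.72% and 9.92% of all genes. The median log2 fold change was 0.35, beside 0.0038 over all genes. Within a diet, 1 inhibitor was higher on CD, beside 4% of all genes, and 1 on ERTU, beside 3.93%. By genotype, from 3 to 6 of the inhibitors were called over the 25 alternatives. Cilp, a matrix protein that binds TGF-beta, had the largest difference in the list at 2.08 (SE 0.27, edgeR adjusted p = 1.15e-05). Dcn, which encodes the proteoglycan decorin, had 0.62 (SE 0.15, adjusted p = 0.00637), and Tgif1, a transcriptional corepressor of SMAD2 and SMAD3, had 0.57 (SE 0.14, adjusted p = 0.00512). Of 16 target genes, 8 were higher and 0 were lower, beside 9.72% and 9.92% of all genes, with a median of 0.45. Within a diet, 1 target was higher on CD, beside 4% of all genes, and 2 on ERTU, beside 3.93%. By genotype, from 6 to 9 targets were called over the 25 alternatives. Timp1, an inhibitor of matrix metalloproteinases, had 1.37 (SE 0.30, edgeR adjusted p = 0.00238). The collagen I genes Col1a1 and Col1a2 had 0.87 (SE 0.19, adjusted p = 0.00236) and 0.72 (SE 0.14, adjusted p = 8.63e-04). Acta2 and Tagln, genes of contractile myofibroblasts and smooth muscle, did not pass, at -0.34 (SE 0.24, adjusted p = 0.358) and -0.02 (SE 0.32, adjusted p = 0.980), and are named here after their values were seen.

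**Figure D5:**
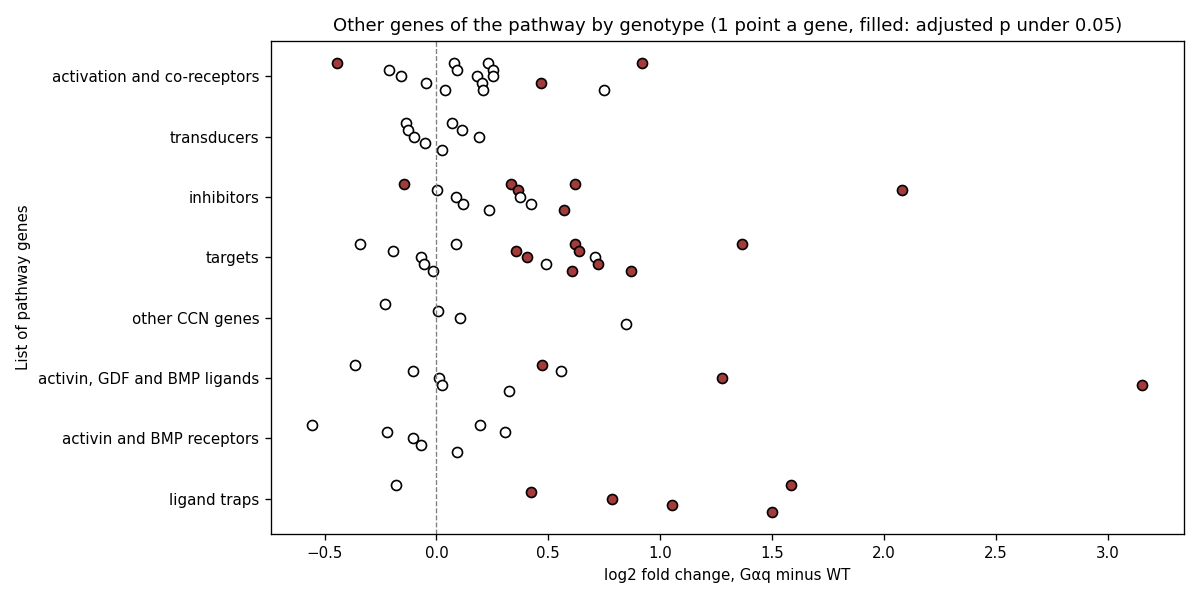
Log2 fold change by genotype (x axis) of each tested gene (points) in 8 lists of pathway genes (y axis), with filled points where the adjusted p is under 0.05. In the target list 8 of 16 points are filled, all above 0, and in the transducer list 0 of 8 are filled.

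In the wider family, 3 of 9 tested activin, GDF and BMP ligands were higher and 0 were lower in Gαq, again beside 9.72% and 9.92% of all genes. Gdf15, a stress-induced cytokine, had a log2 fold change of 3.15 (SE 0.39, edgeR adjusted p = 6.05e-06), Gdf6 had 1.27 (SE 0.20, adjusted p = 9.01e-05) and Bmp4 had 0.47 (SE 0.15, adjusted p = 0.0343). Bmp4 lost its call in 9 of 25 alternatives, each of which left out 1 library (2, 4, 8, 10, 12, 13, 15, 16 or 18), with an adjusted p of up to 0.0807. Of 6 tested ligand traps, 5 were higher and 0 were lower, with a median of 0.92. Within a diet, 0 traps were higher on CD, beside 4% of all genes, and 2 on ERTU, beside 3.93%. By genotype, from 4 to 5 traps were called over the 25 alternatives. Nog, the BMP antagonist noggin, had 1.59 (SE 0.42, edgeR adjusted p = 0.0098) at 0 to 0.965 CPM, Chrdl1, another BMP antagonist, was 2.83-fold higher (adjusted p = 0.0115), and Fst, the activin antagonist follistatin, had a log2 fold change of 1.05 (SE 0.28, adjusted p = 0.0103). Of the 7 activin and BMP receptors and the 4 other CCN genes, 0 passed. By diet, ERTU in WT, ERTU in Gαq and interaction, 0 genes of the 8 lists passed.

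The level of Tgfb3 was most like that of Stra6, Msln and Tmem45a across the 18 libraries once group means were taken out (Pearson r = 0.91, 0.90 and 0.89 of log2 CPM). For Tgfb2 these were Cyp2s1, Gm7665 and Tgfb3 (r = 0.86, 0.85 and 0.84), and for Tgfbr1 they were Kcne4, Pde1a and Slc39a8 (r = 0.90, 0.89 and 0.88). The libraries share depth and tissue composition, and these values are a description.

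Markers of other cell types were counted in the same way, beside 9.72% of all genes higher and 9.92% lower. Of 7 fibroblast markers, 3 were higher in Gαq and 0 were lower, and their sum ran from 2011 to 4206 CPM in WT CD, 2372 to 3976 CPM in WT ERTU, 2674 to 4329 CPM in Gαq CD and 3207 to 3977 CPM in Gαq ERTU. Of 5 mesothelial markers, 2 were higher, Msln among them (log2 fold change 2.53, edgeR adjusted p = 0.0306), and their sum ran from 5.31 to 9.54 CPM in WT CD, 6.36 to 17.4 CPM in WT ERTU, 7.07 to 44.7 CPM in Gαq CD and 10.6 to 26.6 CPM in Gαq ERTU, highest in library 8. Of 8 endothelial markers, 3 were lower and 0 were higher, with sums of 1291 to 1673 CPM in WT CD and 1127 to 1353 CPM in Gαq CD, and of 1361 to 1521 CPM in WT ERTU and 1177 to 1353 CPM in Gαq ERTU. Of 10 cardiomyocyte markers, 1 was higher and 3 were lower, and their sum was at least 74509.6 CPM in each library. With lists this short, nothing is read from these counts. Of 8 macrophage markers 1 was higher, Fcgr1 (log2 fold change 0.71, edgeR adjusted p = 0.00617), and all 8 estimates were above 0. The macrophage sum ran from 325 to 527 CPM in WT CD, 333 to 485 CPM in WT ERTU, 395 to 671 CPM in Gαq CD and 355 to 539.7 CPM in Gαq ERTU. Lck was higher among 4 tested lymphocyte markers (0.87, edgeR adjusted p = 0.0198), and Rgs5 was lower among 5 pericyte markers (-0.24, edgeR adjusted p = 0.0102). Tnnt3 was higher among 3 tested skeletal muscle markers (1.25, edgeR adjusted p = 0.0248), at a low level of 0.0557 to 2.85 CPM. In the same list Tnni2 went the other way (-0.767, unadjusted p = 0.0151, edgeR adjusted p = 0.0681) and did not pass. Mylpf had 0.0757 (edgeR adjusted p = 0.857), so this list showed no common direction. Of the smooth muscle, platelet, atrial, fat and red cell markers tested, 0 passed in edgeR, and 1, Mylk of the smooth muscle list, had an unadjusted p under 0.05. The part of these cell types in the levels of the 10 genes was not tested. Without libraries 5, 8, 14 and 20 the log2 fold change by genotype was 1.09 for Tgfb3, 0.94 for Tgfb2 and 0.33 for Tgfbr1, each still called.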

How the data were processed

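Left ventricular mRNA of 18 mice was sequenced as poly(A)-selected libraries with 100-bp paired-end reads. The authors aligned reads to mm10 with STAR 2.6.0c and counted uniquely aligned pairs per Ensembl gene with featureCounts (Subread 1.6.2). The deposited table used here holds these raw counts. A second table, the authors' variance-stabilized values of the same libraries, was not used.

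Symbols and exon lengths came from GENCODE M21 (GRCm38), which matched 55104 of 55450 gene IDs. In edgeR 4.0.16 (R 4.3.3), filterByExpr kept 16270 genes, leaving out 0.0906% of counts, and TMM scaled the libraries. Of 7 quasi-likelihood comparisons, genotype and diet used a genotype plus diet model, while the 4 pairs of groups and their interaction were contrasts of group means. Benjamini-Hochberg adjustment ran over all tested genes, and calls needed an adjusted p under 0.05. Ratios within libraries, on CPM per kb of exon, were compared by 2-sided exact permutation (SciPy 1.17.1), adjusted over 12 tests. Steps were tested on simulated data. CPM use TMM factors, and log2 CPM a prior count of 2. Marker sums are CPM with the same TMM factors.

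The 10 genes and all lists were chosen with earlier results of these data known. Named pathway genes are up to 3 per list with the largest change by genotype among those called. For the 3 called genes of the 10 with the largest change, the 3 most correlated genes are named. Alternatives were other size factors and filters, DESeq2 1.42.0, limma 3.58.1 voom, fits of only the groups compared, an average of pairwise contrasts, medians, a prior count for ratios, leaving out each library, and leaving out libraries 5, 8, 14 and 20 together, the last chosen after seeing the data.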

Additional observations from a re-analysis of the deposited data

Results flagged for a closer look

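In groups of 4 or 5 libraries, a library was singled out when its gap to the nearest other library was large against the range of the group (Dixon's test at the 95% level). Of 52 groups tested, 8 were singled out, where chance alone gives about 2.6. Library 5 of WT CD was far above the others of its group for Tgfb3 (gap over range 0.901), Tgfbr2 (0.842) and Ltbp1 (0.907), and far below them for the ratio of Tgfbr1 to Tgfbr2 (0.860). Library 8 of Gαq CD was far above the others for Ltbp2 (0.898) and for the ratio of Tgfb3 to Tgfb1 (0.741). Library 16 of Gαq ERTU was low for Ltbp1 (0.892), and library 17 of Gαq ERTU was high for the ratio of Tgfb2 to Tgfb1 (0.851). Libraries 5 and 8 also had the highest atrial marker sums of their groups, 223 and 703 CPM. The same held for their fibroblast, macrophage, mesothelial and fat marker sums. The part of any of these tissues was not tested.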

How the results depend on the processing

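The genotype calls of Tgfb2, Tgfb3 and Tgfbr1 held under every alternative run, while the number of the 10 genes called did not stay fixed. By genotype, 3 of the 10 were called, against 6 with no filter on low counts, 7 with voom and 6 without libraries 5, 8, 14 and 20. Counts over all genes are not given for these genotype fits, so this rise cannot be told from a general rise in calls. For Gαq on ERTU 2 were called, against 6 with voom, 4 when only the 2 groups entered the fit and 5 without those 4 libraries, and for Gαq on CD 2 were called, against 1 when only the 2 groups entered the fit. Over all genes, Gαq on ERTU called 1330, against 2755 with voom, where the rise among the 10 came with more calls in general. ERTU in Gαq called 1, against 0 with no filter, 0 with only the 2 groups and 0 without those 4 libraries, and 4 with DESeq2, and diet called 0, against 2 with DESeq2.

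With medians in place of means, the ratio of Tgfb2 to Tgfb1 differed by 0.61 on CD and 0.61 on ERTU, and that of Tgfb3 to Tgfb1 by 0.78 and 1.15, none of them past the threshold (adjusted exact permutation p = 0.143). Splits that tie on medians raise the smallest p, so this check cannot show whether the ratio calls depend on the use of means.

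Leaving out 1 library at a time, the genes called among the 10 ran from 3 to 7 by genotype (7 without library 5, 5 without library 7), from 1 to 2 between genotypes on CD and from 1 to 4 on ERTU (4 without library 14). Over all genes, between 2812 and 3458 were called by genotype, between 788 and 1414 in the CD comparison of genotypes, between 946 and 1696 in the ERTU one, and from 0 to 0 for ERTU in Gαq. The difference between genotypes in the ratio of Tgfb2 to Tgfb1 ran from 0.71 to 1.04 on CD and 0.54 to 0.90 on ERTU, and in that of Tgfb3 to Tgfb1 from 0.80 to 1.00 on CD and 1.03 to 1.29 on ERTU. With each library left out, the adjusted exact permutation p of these 4 ratios was 0.0686 to 0.107, since fewer splits raise the smallest p, so that this check cannot show whether the ratio calls rest on 1 library. Of 1260 values of single genes among the 10 with 1 library left out, 1230 stayed on their side of the threshold, 16 lost a call and 14 gained one.

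For the other pathway genes, 124 of 9828 values lost a call and 67 gained one with 1 library left out, and under the other alternatives 14 of 3710 lost a call and 71 gained one. The counts called in the pathway lists moved by over 1.5 times in 77 of 1008 cases with 1 library left out and in 40 of 384 under the other alternatives. Among the pathway genes named by genotype with a call, Bmp4 and Furin lost it.

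The cause of the other changes was not tested. No paired analysis was possible because library numbers in the table differ in every group, so the planned replicate block was not run.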
